A study of Mus musculus with 6 samples.

Results

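*H19*, *Igf2*, *Cdkn1c*, *Kcnq1ot1*, *Phlda2*, *Grb10*, *Plagl1*, *Peg3*, *Peg10* and *Mest* are imprinted genes with roles in growth that lie outside the *Dlk1* and *Snrpn* domains. The 10 genes were chosen by name, and each was found once, by its Ensembl identifier in the mouse annotation GENCODE M21 (build GRCm38, which gives all gene positions below), among the 53801 mouse genes listed for every clone. They were followed through mRNA sequencing of 6 clonal lines of MIN6, a mouse insulinoma cell line that models the β cell. All lines carried Cas9 and a lentiviral guide RNA (gRNA), passed puromycin selection and were grown from single cells, so that each line is 1 clone. In the 3 control lines the genotype was control and the gRNA was aimed at *intron 2* of *Snd1*, and in the 3 *Snd1* KO lines it was aimed at *exon 2*. SND1 is a nuclease and Tudor domain coregulator, and the comparison asked which transcripts differ between lines made to lack it and control lines.

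Imprinted genes are transcribed mainly from the allele of 1 parent, under the control of DNA regions that are methylated in only the egg or only the sperm. Several paternally expressed imprinted genes, such as *Igf2*, promote fetal growth, whereas several maternally expressed ones, such as *Cdkn1c*, *Phlda2* and *Grb10*, restrain it. In the pancreas IGF2 is a growth and survival factor for β cells, it is known to be switched on in mouse β cell tumors, and CDKN1C restrains β cell division. The values used here do not separate the parental alleles.

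Of the 10 genes, 3 host a microRNA within their transcription unit. The mature sequences, from RefSeq on build GRCm38.p6, are shown for the reader to place the host transcripts, with the seed (bases 2 to 8) in capitals. No seed was shared between them.
mmu-miR-483-5p (in *Igf2*): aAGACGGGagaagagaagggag
mmu-miR-483-3p (in *Igf2*): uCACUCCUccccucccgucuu
mmu-miR-675-5p (in *H19*): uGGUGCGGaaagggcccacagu
mmu-miR-675-3p (in *H19*): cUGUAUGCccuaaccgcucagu
mmu-miR-335-5p (in *Mest*): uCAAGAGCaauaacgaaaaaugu
mmu-miR-335-3p (in *Mest*): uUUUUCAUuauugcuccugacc

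The listed values are TPM, the reads on a gene divided by its length and scaled to 1000000 per clone. Reads recovered from them (how is described with the processing) came to between 25797625 and 32980926 per clone, and every value of the 10 genes was a whole number of reads. In the same clones *Snd1* itself was at 112 to 119 TPM in control and 14.7 to 57.1 TPM in *Snd1* KO lines. Markers of β cells summed to 47146 to 80889 TPM in control and 51492 to 88242 TPM in *Snd1* KO lines, and 4 hormones of other islet cells to 174 to 314 and 55.9 to 1102 TPM. The sum of β cell markers covers members that lay apart. *Slc30a8*, a zinc transporter of insulin granules, stood at 215, 191 and 744 TPM in control clones 1, 2 and 3 and at 809, 1005 and 779 TPM in the *Snd1* KO clones, without overlap (log2 fold change 1.45, SE 0.50, adjusted p = 0.585, limma), whereas the glucose transporter gene *Slc2a2*, at 65.0 to 172 and 32.8 to 91.5 TPM, overlapped between groups (log2 fold change −1.27, adjusted p = 0.607, limma). Of 9 markers of acinar, duct, connective tissue, immune and endothelial cells, 2 had 0 reads in every clone, and the 9 summed to 0.177 to 3.56 TPM in control and 0.403 to 0.750 TPM in *Snd1* KO lines. Clones of 1 group were not uniform. Across 11368 genes Control 3 correlated less with Control 1 (Pearson r = 0.943) and Control 2 (0.936) than with *Snd1* KO 3 (0.955), and *Snd1* KO 1 reached at most 0.938 with any clone, so log2 fold changes without each of these clones are given for the imprinted growth genes that could be tested. Where 3 values of a group follow one another, they are those of its clones 1, 2 and 3.

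To compare levels between genes, reads were divided by the bases of each gene with every exonic base counted once and scaled to 1000000. On this per-length scale *Peg3*, which encodes a zinc finger protein, was highest, with a mean over the 6 clones of 564 and a range of 466 to 698, above 98.9% of the 17823 genes tested. Next came *Igf2* (mean 260, range 167 to 375) and then *Plagl1* (mean 85.5, range 46.2 to 141), and these 3 ranges did not overlap. The gene *Gm49394*, on the same strand, covers 62.8% of the exonic bases of *Igf2*. How reads on shared exons were assigned is not given, so the level of *Igf2* may be too low and its place below *Peg3* is not settled. *Cdkn1c* (mean 4.19, range 0.933 to 9.12), *Kcnq1ot1* (mean 2.24, range 1.03 to 5.75) and *Mest* (mean 1.88, range 0.0310 to 6.59) followed with ranges that overlapped, so their order is not separated from the spread between clones. *Grb10* (mean 0.284), *H19* (mean 0.0853), *Peg10* (mean 0.0214) and *Phlda2* (0) were at the bottom. The 3 most abundant are all genes known to be paternally expressed, but so are *Kcnq1ot1* and *Mest*, which were far lower. In RNA from whole cultures, fewer cells with a transcript and less transcript per cell cannot be told apart.

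**Figure D1:**
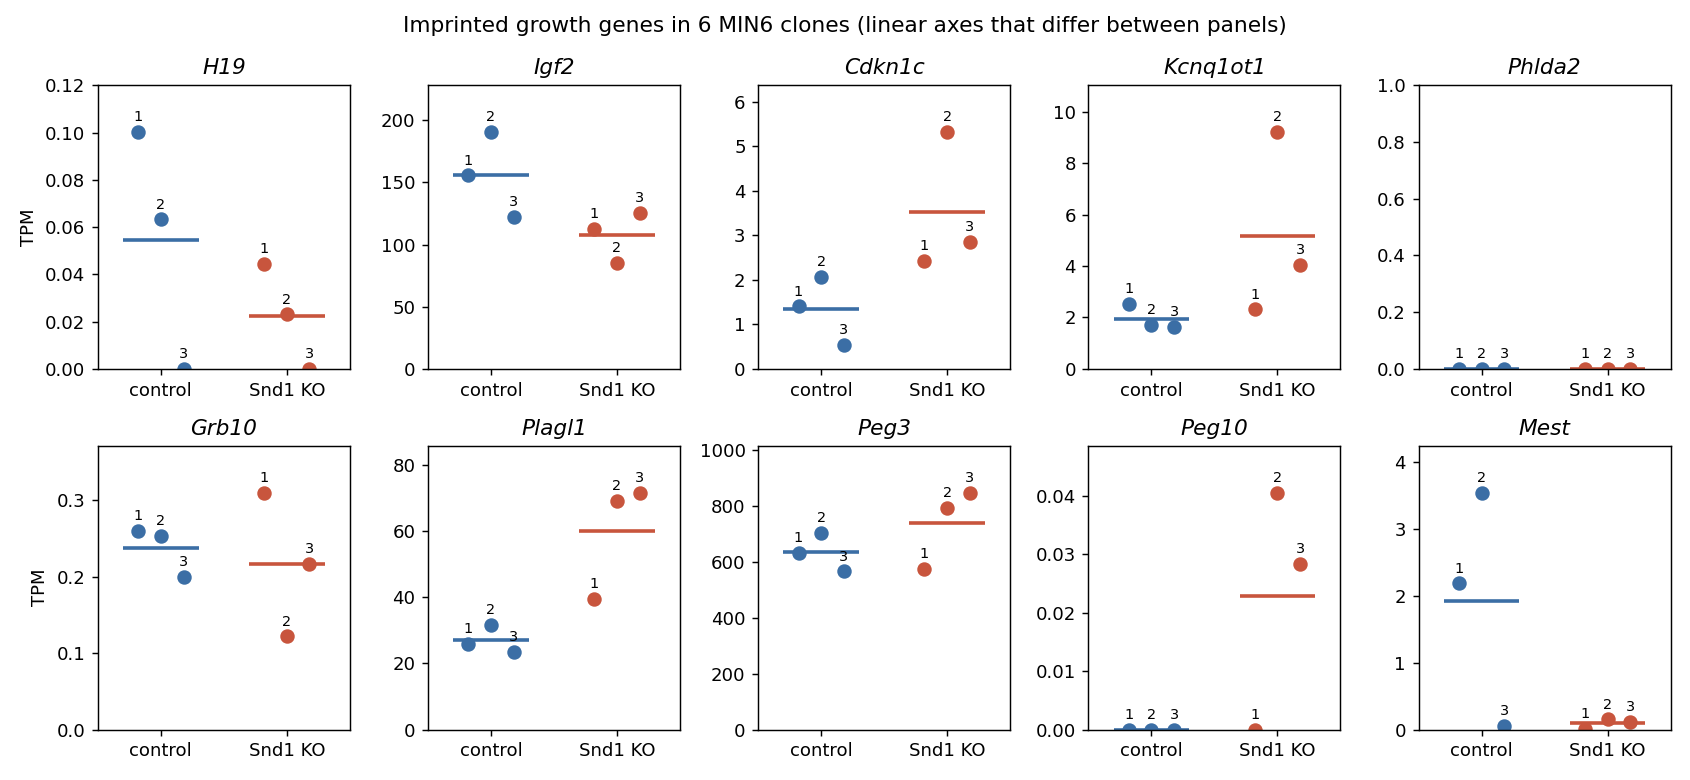
TPM of the 10 imprinted genes in each clone, on linear axes that start at 0 and differ between panels. Points are clones with their numbers, blue for control and red for *Snd1* KO, and horizontal lines are group means (n = 3 each). For *Plagl1* and *Cdkn1c* every *Snd1* KO point lies above every control point, and for *Mest* Control 3 lies with the *Snd1* KO clones.

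*Snd1* KO and control lines were compared with limma on log2(TPM + 1) over the 17823 genes that reached an average of 0.5 TPM over the 6 clones, with p-values adjusted over all of them by Benjamini-Hochberg. The threshold was an adjusted p-value under 0.05 and a 2-fold change, which 1 gene passed (0.00561% of those tested). Of the 10 imprinted genes 6 reached the average needed, namely *Igf2*, *Cdkn1c*, *Kcnq1ot1*, *Plagl1*, *Peg3* and *Mest*. *Mest* did so only through Control 1 and Control 2, so it had to differ between clones to be tested, and its difference is given as a description without a p from limma. None of the 6 passed the threshold, that is 0 of 6 with limma and 0 of 6 with limma-voom on the recovered reads. With clone quality weights 895 of 17823 genes passed, *Plagl1* and *Mest* among them. Without both Control 3 and *Snd1* KO 1 133 of 17823 genes passed, *Plagl1* among them. Both settings raised counts over all genes, with 5810 and 4765 at an unadjusted limma p-value under 0.05, against 1419 for all 6 clones without weights. For all 6 clones without weights, 3 of the 6 genes had a limma p-value under 0.05 before adjustment, beside 7.96% of all genes tested. Of these, *Plagl1* and *Cdkn1c* were higher in *Snd1* KO lines, a direction held by 5.63% of all genes tested at that level, and *Igf2* was lower, as were 2.33%. In 2 of the 6, *Plagl1* and *Cdkn1c*, every *Snd1* KO clone lay above every control clone, as in 9.69% of all genes tested, and no gene of the 6 had every *Snd1* KO clone below, as did 4.03%. The p-values and this lack of overlap come from the same values, so 1 is no added support for the other. The log2 fold change was at least 1 in size for *Plagl1*, and for *Mest* under the limit just given, as in 4.89% of all genes tested. Leaving *Mest* aside, in 4 of 5 genes, all but *Peg3*, the highest clone exceeded the lowest at least 2-fold on this scale, as did 34.9% of all genes tested. Permutation p-values below are exact and two-sided, and one that compares 3 clones with 3 cannot be under 0.1.

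**Figure D2:**
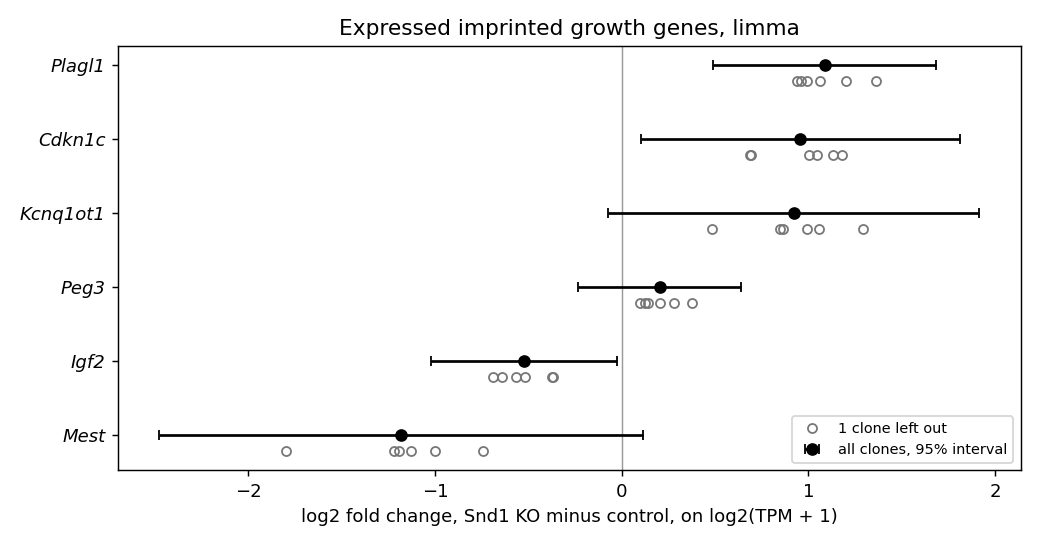
Log2 fold change on log2(TPM + 1), *Snd1* KO minus control, of the 6 imprinted genes that could be tested. Filled points with bars are the estimate and 95% interval from limma over all 6 clones, and open points leave out 1 clone each. The intervals of *Plagl1*, *Cdkn1c* and *Igf2* lie on 1 side of 0 before adjustment for the number of genes, and no open point of any gene crosses 0. *Mest* passed the average of 0.5 TPM only through Control 1 and Control 2.

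*Plagl1* (ENSMUSG00000019817, chromosome 10 from 13060504 to 13131694, plus strand) encodes a zinc finger transcription factor and is paternally expressed. It stood at 25.9, 31.7 and 23.5 TPM in the control lines, against 39.4, 69.2 and 71.5 TPM in the *Snd1* KO lines. The groups did not overlap, and *Snd1* KO 1 lay nearest to the control lines. The means were 27.0 ± 4.21 and 60.05 ± 17.9 TPM (SD, n = 3 each), so that *Snd1* KO lines held 2.22 times the control mean. The log2 fold change was 1.09 (95% interval 0.49 to 1.68, adjusted p = 0.537, limma; exact permutation p = 0.1). Without *Snd1* KO 1 it was 1.36 and without Control 3 it was 0.99, and the gene passed the threshold without both of these clones (1.27, adjusted p = 0.0495, limma), an adjusted p that otherwise lay between 0.0179 and 0.938 over the alternatives. Both clones were picked from the same data as unlike their groups. Leaving them out narrows the spread within groups, and 133 genes then passed, so the pass of *Plagl1* is no added support. PLAGL2, a protein of the same family, was encoded by a gene at 8.22 to 9.85 TPM in control and 9.30 to 10.3 TPM in *Snd1* KO lines.

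*Cdkn1c*, *Kcnq1ot1* and *Phlda2* belong to the *Kcnq1* domain on distal chromosome 7. *Kcnq1ot1* is a long noncoding RNA from the paternal allele that is known to silence neighboring genes in cis, among them *Cdkn1c*, an inhibitor of cyclin-dependent kinases, and *Phlda2*, a small protein with a pleckstrin homology domain that limits placental growth. *Cdkn1c* (ENSMUSG00000037664, 143458339 to 143461050, minus strand) read 1.40, 2.07 and 0.541 TPM in the control lines, from 45, 63 and 15 reads. The *Snd1* KO lines gave 2.42, 5.31 and 2.85 TPM, from 70, 148 and 85 reads. The groups did not overlap, although Control 2 and *Snd1* KO 1 were close, and *Snd1* KO 2 and Control 3 were the extremes. The means were 1.34 ± 0.765 and 3.53 ± 1.56 TPM (SD, n = 3 each). After 1 TPM was added the log2 fold change was 0.96 (95% interval 0.10 to 1.81, adjusted p = 0.605, limma; exact permutation p = 0.1). With a pseudocount of 0.1, which shrinks low genes less, it was 1.42. On the first scale, leaving out Control 3 gave 0.68, leaving out *Snd1* KO 2 gave 0.69 and leaving out *Snd1* KO 1 gave 1.13. The gene *Gm44732* lies antisense to *Cdkn1c* and shares 625 of its 635 exonic bases with it, and had at most 7 reads in any clone.

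*Kcnq1ot1* (ENSMUSG00000101609, 143203458 to 143296549, minus strand) stood at 2.52, 1.70 and 1.64 TPM in the control lines, against 2.31, 9.20 and 4.05 TPM in the *Snd1* KO lines. *Snd1* KO 2 stood out, with 4260 reads compared with 756 to 2009 in the other clones, and *Snd1* KO 1 lay within the control range. The means were 1.95 ± 0.489 and 5.19 ± 3.58 TPM (SD, n = 3 each). The log2 fold change of 0.92 (95% interval −0.07 to 1.92, adjusted p = 0.607, limma; exact permutation p = 0.2) dropped to 0.48 when *Snd1* KO 2 was left out and was 1.29 without *Snd1* KO 1 and 0.85 without Control 3. The transcript runs antisense within *Kcnq1*, a potassium channel gene that had 0 to 12 reads per clone. The cDNA and library kits named by the study are not described as keeping strand, so that reads from either strand of this interval cannot be told apart. *Phlda2* (ENSMUSG00000010760, 143501545 to 143503150, minus strand) had 0 reads in all 6 clones, where the 3 reads that a count of 0 allows would be 0.350 to 0.405 TPM, and its relative *Phlda1* is described with the gene lists below.

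Over the 6 clones *Kcnq1ot1* and *Cdkn1c* were highest in the same line, *Snd1* KO 2, and lowest in the same line, Control 3. Of the 4 pairs of genes that share a control region, those with *Phlda2* gave no correlation and 2 could be computed. For *Kcnq1ot1* and *Cdkn1c* Pearson r on log2(TPM + 1) was 0.848 (exact permutation p = 0.0319, adjusted over the pairs 0.0639) and Spearman rho was 0.829 (exact permutation p = 0.0583, adjusted 0.117), n = 6. Without *Snd1* KO 2 and *Snd1* KO 3, the clones farthest from the median of *Kcnq1ot1*, r was 0.425 (n = 4), so the high r rests on including them. Leaving them out also narrowed *Kcnq1ot1* to 1.64 to 2.52 TPM. Both genes had higher means in the *Snd1* KO lines, so r over all 6 clones mixes the difference between groups with that between clones, and within a group 3 clones are too few for a correlation. The RNA from whole cultures does not show whether both transcripts came from 1 allele.

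**Figure D3:**
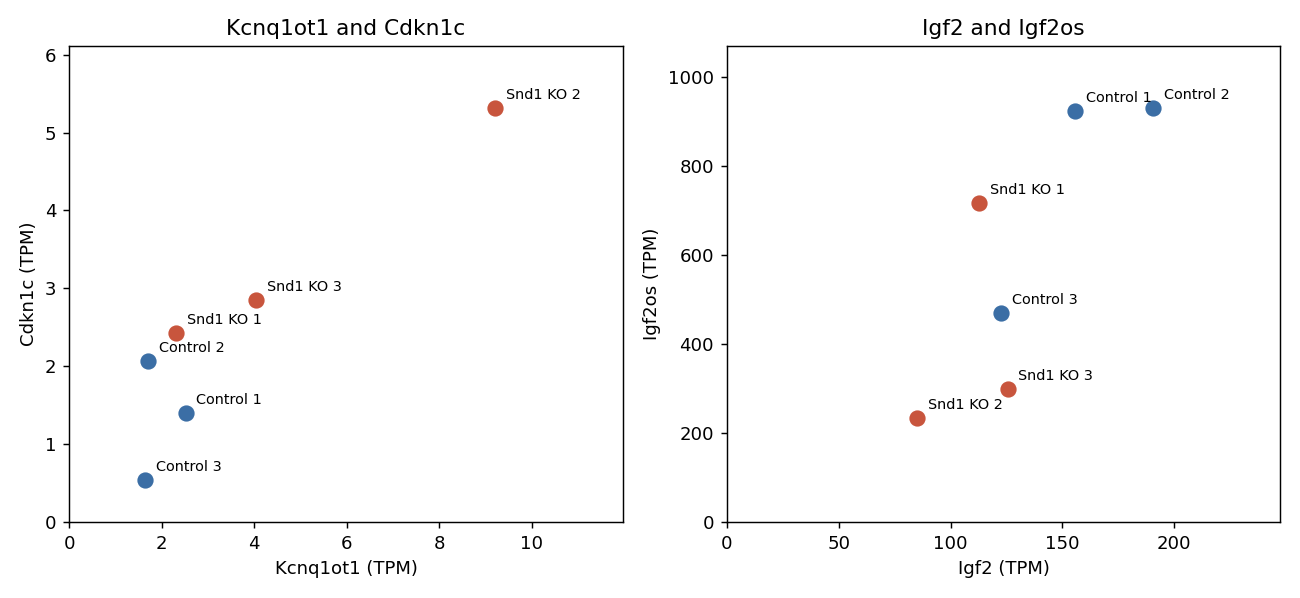
TPM of *Cdkn1c* against *Kcnq1ot1* (left) and of the antisense gene *Igf2os* against *Igf2* (right), with 1 point per clone, blue for control and red for *Snd1* KO. *Snd1* KO 2 lies at the upper right on the left and at the lower left on the right.

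A start of *Plagl1* and that of *Kcnq1ot1*, genes at their highest levels in *Snd1* KO 2 and *Snd1* KO 3, are shown beside 1 of 3 listed starts of *Mest*, which was highest in Control 1 and Control 2. Each run covers 300 bases around a start listed in RefSeq on GRCm38.p6, most of them upstream, written 5′ to 3′ on the strand of the gene. Capitals mark a GC box (GGGCGG on either strand) or a CCAAT box (CCAAT on either strand).
*Plagl1* (chr10:13090582-13090881, plus strand): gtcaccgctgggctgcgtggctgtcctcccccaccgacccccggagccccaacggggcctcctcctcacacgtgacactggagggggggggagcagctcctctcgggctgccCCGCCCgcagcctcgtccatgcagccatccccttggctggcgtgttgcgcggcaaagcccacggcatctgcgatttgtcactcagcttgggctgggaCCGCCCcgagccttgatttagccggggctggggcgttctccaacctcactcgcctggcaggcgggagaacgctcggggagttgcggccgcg
*Kcnq1ot1* (chr7:143296498-143296797, minus strand): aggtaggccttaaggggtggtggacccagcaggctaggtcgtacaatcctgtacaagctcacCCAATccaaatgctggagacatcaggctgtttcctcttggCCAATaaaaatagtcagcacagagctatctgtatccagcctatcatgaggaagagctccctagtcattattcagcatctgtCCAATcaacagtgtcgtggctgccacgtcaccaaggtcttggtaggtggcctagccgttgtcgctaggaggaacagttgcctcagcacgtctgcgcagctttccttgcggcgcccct
*Mest* (chr6:30737800-30738099, plus strand): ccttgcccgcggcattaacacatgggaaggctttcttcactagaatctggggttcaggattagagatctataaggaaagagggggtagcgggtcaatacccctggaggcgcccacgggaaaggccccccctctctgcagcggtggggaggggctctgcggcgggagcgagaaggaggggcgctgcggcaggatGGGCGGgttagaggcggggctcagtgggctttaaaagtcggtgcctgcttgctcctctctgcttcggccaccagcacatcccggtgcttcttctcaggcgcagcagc
The *Plagl1* run held 26 CpG dinucleotides, 2 GC boxes and 0 CCAAT boxes, the *Mest* run 17 CpG, 1 GC box and 0 CCAAT boxes, and the *Kcnq1ot1* run 9 CpG, 0 GC boxes and 3 CCAAT boxes. Among all 32851 listed runs of this length the median was 7 CpG, 35.7% held a GC box and 37.4% a CCAAT box. The matches describe the sequence only. Runs were listed for 7 of the 10 genes, not for *H19*, *Cdkn1c* and *Peg10*.

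*Igf2* (ENSMUSG00000048583, chromosome 7 from 142650766 to 142666816, minus strand) encodes insulin-like growth factor 2, expressed from the paternal allele, and lies next to *Ins2*. It stood at 156, 190 and 123 TPM in the control lines, against 113, 85.2 and 125 TPM in the *Snd1* KO lines. *Snd1* KO 3 lay just above Control 3, so the groups overlapped, and *Snd1* KO 2 was lowest. The means were 156 ± 33.9 and 108 ± 20.6 TPM (SD, n = 3 each), 69.1% of control, with a log2 fold change of −0.53 (95% interval −1.02 to −0.03, adjusted p = 0.607, limma; exact permutation p = 0.2). Leaving out Control 3 gave −0.69, leaving out *Snd1* KO 1 gave −0.57, and it was −0.37 without either Control 2 or *Snd1* KO 2. *Ins2*, the neighboring insulin gene, had 13976 to 18632 TPM in control and 11194 to 15716 TPM in *Snd1* KO lines.

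Other transcripts are annotated over *Igf2*. *Igf2os*, on the opposite strand, stood at 925, 931 and 471 TPM in the control lines, against 717, 233 and 300 TPM in the *Snd1* KO lines, a log2 difference of −1.002 (95% interval −2.11 to 0.11, limma; exact permutation p = 0.2). For each *Igf2* read there were 1.89, 1.56 and 1.22 reads on *Igf2os* in the control lines, against 2.02, 0.872 and 0.763 in the *Snd1* KO lines. The genes share 98 exonic bases, and reads of the opposite strands cannot be told apart without strand. *Gm49394*, on the same strand, covers 62.8% of the exonic bases of *Igf2* and had 123 to 572 reads per clone, and how reads on shared exons were assigned is not given in the sources used here. The 3 genes together held 1411, 1538 and 947 of every 1000000 reads in the control lines, against 1100, 537 and 705 in the *Snd1* KO lines. Control 3 was then below *Snd1* KO 1, and the log2 fold change with these reads added to *Igf2*, a choice made after seeing the data, was −0.76 (adjusted p = 0.607, limma). The listed interval of *Mir483* held 10 to 21 reads in control and 5 to 12 reads in *Snd1* KO lines, and mature microRNA was not measured in these mRNA libraries.

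*H19* (ENSMUSG00000000031, chromosome 7 from 142575529 to 142578143, minus strand) is a long noncoding RNA from the maternal allele that shares its control region with *Igf2*. It stood at 5, 3 and 0 reads in the control lines, against 2, 1 and 0 reads in the *Snd1* KO lines, or at most 0.1001 TPM, and no fold change was taken. The same clones held 7621 to 18635 reads on *Igf2*. *Mir675*, which lies in an exon of *H19*, had 0 reads in every clone. Pearson r between *H19* and *Igf2* was 0.551 (exact permutation p = 0.264, adjusted over the pairs 0.264) and Spearman rho was 0.464 (exact permutation p = 0.372, adjusted 0.372), n = 6, at counts where *H19* was near or under the floor of 3 reads. Without Control 1 and Control 3 r was 0.551 (n = 4).

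**Figure D4:**
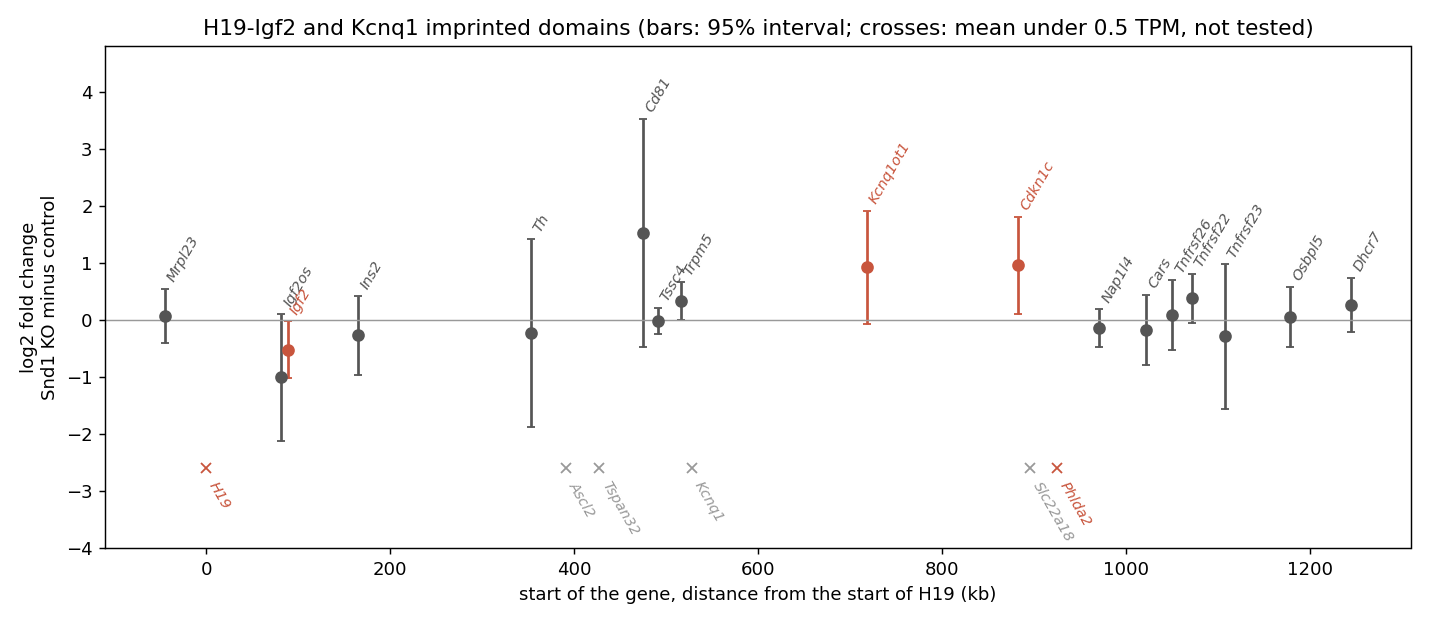
Log2 fold change on log2(TPM + 1), *Snd1* KO minus control, of genes along the *H19*-*Igf2* and *Kcnq1* domains of chromosome 7, against the distance of their starts from the start of *H19* in kb. Bars are 95% intervals from limma, red marks the imprinted growth genes, and crosses mark genes under the average needed for a test. *Igf2* lies below 0 and *Kcnq1ot1* and *Cdkn1c* above, with *Kcnq1* and *Phlda2*, too low to be tested, among them.

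*Peg3* (ENSMUSG00000002265, chromosome 7 from 6703892 to 6730431, minus strand), a paternally expressed gene with roles in growth and maternal behavior, stood at 632, 703 and 565 TPM in the control lines, against 574, 792 and 845 TPM in the *Snd1* KO lines. *Snd1* KO 2 and *Snd1* KO 3 were above all control lines and *Snd1* KO 1 was not. The means were 633 ± 69.0 and 737 ± 144 TPM (SD, n = 3 each), with a log2 fold change of 0.20 (95% interval −0.23 to 0.64, adjusted p = 0.770, limma; exact permutation p = 0.3) that was 0.37 without *Snd1* KO 1, 0.12 without Control 3, 0.14 without *Snd1* KO 2 and 0.095 without *Snd1* KO 3. *Usp29*, a paternally expressed neighbor that is transcribed away from *Peg3*, stood at 20.05, 20.7 and 19.2 TPM in the control lines, against 17.2, 24.2 and 24.9 TPM in the *Snd1* KO lines, again highest in *Snd1* KO 2 and 3. The maternally expressed neighbor *Zim1* had lower values in every *Snd1* KO clone. It stood at 36.7, 35.8 and 39.5 TPM in the control lines, against 26.7, 24.2 and 16.5 TPM in the *Snd1* KO lines, without overlap, a log2 difference of −0.73 (SE 0.19, adjusted p = 0.556, limma).

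*Mest* (ENSMUSG00000051855, chromosome 6 from 30723547 to 30748465, plus strand), which encodes a hydrolase-like protein of the endoplasmic reticulum and is paternally expressed, was high in only 2 clones, Control 1 and Control 2. The control lines gave 147, 226 and 3 reads, or 2.18, 3.54 and 0.0516 TPM. The *Snd1* KO lines gave 1, 9 and 7 reads, or 0.0165, 0.154 and 0.112 TPM. Control 3 lay within the range of the *Snd1* KO lines, so the groups overlapped. The means were 1.92 ± 1.76 and 0.0941 ± 0.0705 TPM (SD, n = 3 each), or −1.18 as a log2 fold change after adding 1 TPM, −2.55 after adding 0.1 TPM and −3.45 with limma-voom. On the first scale, leaving out Control 3 gave −1.80, leaving out *Snd1* KO 1 gave −1.13 and leaving out Control 2 gave −0.74. The summed markers of non-endocrine cells were also highest in Control 1 and Control 2, with 3.56, 3.46 and 0.177 TPM in the control lines, against 0.750, 0.403 and 0.587 TPM in the *Snd1* KO lines. The collagen gene *Col3a1* accounted for the most of this sum in Control 1 (1.68 TPM) and Control 2 (1.73 TPM), and the part of such cells in the *Mest* values was not tested. Of 3 markers of acinar cells *Cpa1* and *Ptf1a* had 0 reads in all clones, whereas *Cela1* gave 0.668, 0.479 and 0 TPM in the control lines, against 0.303, 0.0350 and 0 TPM in the *Snd1* KO lines. *Copg2*, which overlaps the end of *Mest* on the other strand and shares 912 exonic bases with it, had 30.3 to 38.1 TPM in control and 28.4 to 32.9 TPM in *Snd1* KO lines. *Mir335* had 0 reads in every clone.

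*Grb10* and *Peg10* were under the average needed for a test. *Grb10* (ENSMUSG00000020176, chromosome 11 from 11930508 to 12038683, minus strand), an adaptor protein that dampens insulin and IGF receptor signaling, stood at 27, 25 and 18 reads in the control lines, against 29, 11 and 21 reads in the *Snd1* KO lines, or 0.122 to 0.309 TPM in all, and the groups overlapped (exact permutation p = 0.8). Its neighbor *Ddc*, which encodes the decarboxylase that makes dopamine and serotonin, stood at 163, 161 and 194 TPM in the control lines, against 257, 226 and 247 TPM in the *Snd1* KO lines, without overlap (log2 fold change 0.49, SE 0.12, adjusted p = 0.544, limma). *Peg10* (ENSMUSG00000092035, chromosome 6 from 4747306 to 4760517, plus strand), derived from a retrotransposon, had 0 reads in all control lines and 0, 4 and 3 reads across the *Snd1* KO lines, too few for a fold change. *Sgce*, transcribed away from *Peg10*, reached at most 0.0454 TPM.

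Other genes were examined as lists. Of 38 genes that neighbor the imprinted growth genes, not all of them known to be imprinted, 24 could be tested and 0 passed the threshold. In 3 of the 24 every *Snd1* KO clone was above every control clone (*Ddc*, *Trpm5* and *Ltv1*) and in 1 below (*Zim1*), beside 9.69% and 4.03% of all genes tested, and the median log2 fold change was 0.04, or −0.04 after quantile normalization. Of 30 genes of other imprinted domains, 23 could be tested and 0 passed, with 3 higher and 2 lower without overlap (9.69% and 4.03% of all genes tested) and a median of 0.07, or 0.01 after quantile normalization and 0.03 after median ratio scaling. Among these, *Nnat*, a paternally expressed gene for a small membrane protein abundant in β cells, stood at 307, 356 and 465 TPM in the control lines, against 485, 805 and 657 TPM in the *Snd1* KO lines (log2 fold change 0.78, SE 0.23, adjusted p = 0.568, limma). *Kcnk9*, a maternally expressed potassium channel gene, stood at 10.96, 6.93 and 3.22 TPM in the control lines, against 0.914, 2.58 and 2.00 TPM in the *Snd1* KO lines (log2 fold change −1.43, SE 0.43, adjusted p = 0.568, limma). *Rasgrf1*, a paternally expressed guanine nucleotide exchange factor, was at 96.9 to 116 TPM in control and 136 to 143 TPM in *Snd1* KO lines. *Trappc9*, which lies beside *Kcnk9*, was at 10.7 to 12.3 and 8.34 to 10.5 TPM.

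The IGF axis, through which IGF2 acts, was taken as 20 genes, of which 9 could be tested and 0 passed. Their median log2 fold change was −0.02, or −0.18 after quantile normalization, and 1 gene lay higher and 1 lower without overlap (9.69% and 4.03% of all genes tested). *Igf1r*, the receptor that transmits the IGF2 signal, stood at 0.650, 0.976 and 9.97 TPM in the control lines, against 32.0, 16.8 and 18.4 TPM in the *Snd1* KO lines. The groups did not overlap and Control 3 lay between the other control lines and the *Snd1* KO lines (log2 fold change 2.77, SE 0.72, adjusted p = 0.568, limma). *Igfbp4*, which encodes an IGF-binding protein, stood at 4.38, 1.24 and 0.911 TPM in the control lines, against 0.0819, 0.142 and 0.317 TPM in the *Snd1* KO lines, without overlap (log2 fold change −1.27). It reached the average of 0.5 TPM only through the control lines, so no test is given. *Igf2r*, an imprinted receptor that clears IGF2, was at 242 to 348 TPM in control and 209 to 320 TPM in *Snd1* KO lines and overlapped. *Igf2bp1*, *Igf2bp2* and *Igf2bp3*, which encode proteins that bind *Igf2* mRNA, were each at 0.0671 TPM or less.

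Relatives of the encoded proteins and genes that maintain imprints were the remaining lists. Of 8 relatives, 7 could be tested and 0 passed, with a median of 0.10 and 1 gene higher without overlap (9.69% of all genes tested). *Phlda1* stood at 30.4, 33.1 and 33.8 TPM in the control lines, against 56.2, 49.1 and 47.6 TPM in the *Snd1* KO lines, without overlap (log2 fold change 0.63, SE 0.11, adjusted p = 0.372, limma). *Cdkn1a* and *Cdkn1b*, the other inhibitors of the CDKN1 family, had log2 fold changes of 0.01 and 0.33 with groups that overlapped. Of 21 genes that maintain imprints, such as DNA methyltransferases and the zinc finger proteins that protect methylated control regions, 18 could be tested and 0 passed. Their median log2 fold change was 0.14, beside 0.04 over all genes tested, with 17 of 18 values above 0, and 14 of 18 after quantile normalization or median ratio scaling. The median was then 0.094 and 0.103, beside −0.011 and 0.007 over all genes tested. Every *Snd1* KO clone lay above every control clone for 3 of the 18, beside 9.69% of all genes tested, namely *Zfp445* (36.5 to 42.6 and 45.5 to 51.7 TPM), *Dnmt3a* (28.3 to 33.0 and 34.2 to 41.1 TPM) and *Dnmt3b* (0.334 to 0.448 and 0.579 to 0.749 TPM), which reached the average of 0.5 TPM only through the *Snd1* KO lines.

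The genes most like each abundant imprinted gene were sought by Pearson r of log2(TPM + 1) over the 6 clones among 11368 genes, as a description without a test. *Plagl1* was followed most closely by *Phlpp1* (r = 0.998), *Zc3h4* (0.994) and *Slu7* (0.994), *Igf2* by *Nfasc* (0.993), *Sarm1* (0.989) and *C9orf72* (0.988), and *Peg3* by *Ncoa1* (0.990), *Bicd2* (0.989) and *Vps26a* (0.985). The points share their libraries, and none of these 9 genes is in the lists above.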

How the data were processed

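Messenger RNA from 6 MIN6 clones, 3 control and 3 *Snd1* KO with 1 library each, was analysed, grouped by the sample labels. The authors used Genialis to process the reads, which were paired-end, and the deposited values are TPM per gene. The submitters' processing notes name FastQC, Trimmomatic, HISAT2, HTSeq, DESeq2 and the build mm10, with versions not given in the sources used here. Of 53801 mouse genes, 53706 matched GENCODE M21 (GRCm38), and 99 spike-in rows, at most 1.02 TPM per clone, were left out.

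Each TPM value times a gene's length, with the exons of every transcript added up, gave whole reads in all clones for 91.7% of 14851 genes above 0 in every clone and averaging at least 1 TPM. After a search for the lengths of other genes, 99.8% of values above 0 were whole within 0.01. The depth was 25797625 to 32980926 reads, 3 reads were taken as the floor, and both cover counting error only. Whether a read pair was counted as 1 read or 2, and whether strand was used, is not given in the sources used here. The recovered depth is above the number of reads per library that the study states, so the floor may stand for fewer than 3 pairs.

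log2(TPM + 1) was compared with limma 3.58.1 (trend on) in R 4.3.3, run first on simulated data. The simulation held no clone unlike its group, so it checked the procedure and not its power or error rate at the spread seen here. Exact permutation tests, RefSeq sequence searches and plots used Python 3.11.15, numpy 2.4.6, pandas 2.3.3 and matplotlib 3.10.9. The genes and lists were chosen with earlier results of these data known. From each list, genes were named if they passed the threshold, otherwise up to 4 without overlap by size of change, and for each gene averaging at least 5 TPM the 3 most similar genes. *Ins2*, *Igf2r*, *Usp29*, *Copg2*, *Sgce*, *Plagl2*, *Cdkn1a*, *Cdkn1b*, the *Igf2bp* genes, the markers *Slc2a2*, *Col3a1*, *Cela1*, *Cpa1* and *Ptf1a*, and overlapping transcripts were named in addition, after their values were seen. Alternatives were a pseudocount of 0.1, no filter, an average of at least 5 TPM, quantile normalization, median ratio scaling, no trend, clone quality weights, a replicate block, limma-voom, and leaving out clones. The clones are separate lines, but p-values measure only the spread between them.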

Additional observations from a re-analysis of the deposited data

How the results depend on the processing

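The 6 imprinted genes that could be tested kept the sign of their log2 fold change under every alternative that gave a value. The number of these genes past the threshold, 0, was 2 with clone quality weights (*Plagl1*, 1.23, adjusted p = 0.0179, limma, and *Mest*, −1.70, which reached the average of 0.5 TPM only through Control 1 and Control 2 and is no support) and 1 without both Control 3 and *Snd1* KO 1 (*Plagl1*), and stayed 0 with each clone left out in turn. Control 3 and *Snd1* KO 1 were picked from the same data, so the pass of *Plagl1* without them is no added support. Over all genes, the count of 1 past the threshold was 895 with clone quality weights and 133 without both Control 3 and *Snd1* KO 1, 0 without a filter, without a trend, with the replicate block and with limma-voom, and 0 to 1 with 1 clone left out. In these 4 fits with 0 calls, counts at an unadjusted limma p-value under 0.05 were 1803 of 30973 genes without a filter and 1410, 1195 and 1557 of 17823 in the others. The fit with 1 call had 1419 of 17823. The weights were lowest in Control 3 (0.279) and *Snd1* KO 1 (0.286) and highest in *Snd1* KO 3 (3.91), and the cause was not tested.

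Leaving out 1 clone at a time gave log2 fold changes between 0.94 and 1.36 for *Plagl1*, 0.68 and 1.18 for *Cdkn1c*, 0.48 and 1.29 for *Kcnq1ot1*, −0.69 and −0.37 for *Igf2*, 0.095 and 0.37 for *Peg3*, and −1.80 and −0.74 for *Mest*. That of *Mest* was −2.55 with a pseudocount of 0.1 and −3.45 with limma-voom, and the correlation of *Kcnq1ot1* and *Cdkn1c* was 0.800 with the smaller pseudocount. The deviations of same-numbered clones from their group means correlated at 0.115, −0.199 and −0.108, so the numbers do not pair the clones, and in the replicate block 0 genes and 0 imprinted genes passed. For *H19*, *Peg10* and *Phlda2*, at 0 to 5 reads per clone, a difference was not detectable at this depth.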
